A study of Mus musculus with 13 samples.

Results

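Histone deacetylases, sirtuins, lysine demethylases and SETD genes were examined in RNA-seq of female mouse embryonic stem cells (mESCs) in which Smarcc1 was knocked down during differentiation. Members were the rows of the expression table whose symbol begins with Hdac, Sirt, Kdm or Setd followed by a digit and whose mean was at least 0 log2 CPM (reads scaled to the mapped reads of the library) over days 4 to 7. This gave 42 rows of 44 with such a name, out of 25965 rows in the table, and 13406 rows passed the same level threshold and were tested. The 42 rows comprised 12 HDAC, 7 sirtuin, 14 KDM and 9 SETD rows and stood for 41 genes, because Hdac4 occupied 2 rows. The members just outside were Kdm4d, with a mean of -3.15 log2 CPM, and the Y-linked Kdm5d, with 0 reads in each of the 13 libraries. Just inside was Hdac9, with a mean of 0.02 log2 CPM.

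The cells came from an FVB/NJ mother and a CAST/EiJ father and carried no other engineered allele that the labels name. The undifferentiated library (Day0) was grown in 2i medium without a hairpin. For the other groups the cells were weaned out of 2i, infected on day 2 with a retrovirus carrying a short hairpin RNA and selected with puromycin from day 3, and 1 library was made on each of days 4, 5, 6 and 7. The hairpin was Nons, a nonsilencing control, or Smarcc1.6 or Smarcc1.7, which both target Smarcc1, a core subunit of the BAF chromatin remodelling complex. The comparison asked how these chromatin genes respond when Smarcc1 is knocked down while the cells leave pluripotency. The BAF complex itself was not measured in these libraries. Since there was 1 library per group and day, the 4 days served as replicates and the p-values measure the spread between these libraries only.

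Histone deacetylases take acetyl groups from lysines and act mostly inside corepressor complexes such as NuRD, Sin3 and CoREST. The class I, IIa, IIb and IV enzymes need zinc, whereas the sirtuins need NAD+. Lysine demethylases of the KDM1 family are amine oxidases, and the other KDM families carry a JmjC domain that uses iron and 2-oxoglutarate. Each family prefers certain methylated lysines, for example H3K9 for KDM3, H3K9 and H3K36 for KDM4, H3K4 for KDM5 and H3K27 for KDM6. The SETD genes encode SET domain proteins, among them the H3K4 methyltransferase subunits Setd1a and Setd1b and Setd2, which trimethylates H3K36. In mESCs, Kdm3a, Kdm4c and Kdm5b are known for roles in self-renewal, and the X-linked Kdm5c and Kdm6a are known to escape X inactivation in the mouse.

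The strands that direct each hairpin to Smarcc1 are shown because every group comparison rests on them. Bases 2 to 8 of each guide, its seed, are in capitals, and sequences are written 5′ to 3′ as DNA.
Smarcc1.6: tGTAACTGcttcttcatcctgc
Smarcc1.7: tTGCTCATcttcttccttctga
The 22 bases complementary to the Smarcc1.6 guide lie in coding sequence of exon 13 of the 28 exons of the transcript Smarcc1-201, at chr9:110177472-110177493 (GRCm38). Those of Smarcc1.7 lie in coding sequence of exon 11, at chr9:110173911-110173932. Annotated transcripts of the members held neither target as a whole, and matches to the seed alone were not searched.

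Smarcc1 itself lay at 9.10, 8.87, 8.28 and 7.89 log2 CPM in the Nons libraries of days 4, 5, 6 and 7. With Smarcc1.6 it was at 7.42, 7.40, 7.28 and 7.28, and with Smarcc1.7 at 7.96, 7.78, 7.17 and 7.51. Both hairpin libraries were lower than the Nons library on each day, and for both hairpins the gap was smallest on day 7, where Nons was lowest. The mean difference was -1.06 log2, leaving 48.0% of the Nons level (exact permutation test within days, two-sided, p = 0.0123, the smallest that the 81 arrangements allow). Depth ran from 13993440 to 63548093 mapped reads per library. The Day0 and day 6 libraries placed 85.3% to 86.5% of mapped reads in genes, against 91.6% to 92.6% in the other 9, so changes that rest on day 6 or on Day0 carry this difference.

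Cell state markers moved with both day and knockdown. Of 7 mESC markers, 5 (Sox2, Klf4, Dppa3, Zfp42 and Esrrb) were higher in knockdown, by 0.69 to 1.40 log2, and 4 fell per day. Their summed level was 4325 CPM in Day0, 1089 to 1740 CPM in Nons, 1368 to 2537 CPM with Smarcc1.6 and 1097 to 2108 CPM with Smarcc1.7. In knockdown T (1 of 2 tested mesoderm markers) and Sox17 (1 of 3 endoderm markers) were lower. Otx2 (1 of 4 primed state markers) and Sox1 (1 of 3 neuroectoderm markers) were higher. So were Col1a2 and Thy1, 2 of 4 fibroblast or smooth muscle markers. Summed primed state markers were above same-day Nons in 6 of 8 comparisons, as were fibroblast or smooth muscle markers. For neuroectoderm and mesoderm it was 2 of 8, and for endoderm 0 of 8. Nes was lower with both hairpins on days 4 to 6 and higher on day 7. Of the trophoblast markers 0 passed in limma. The fibroblast or smooth muscle markers summed to 8.42 to 210.5 CPM in Nons, 33.0 to 335 CPM with Smarcc1.6 and 19.4 to 315 CPM with Smarcc1.7, and no marker of any list was at 0 reads in all libraries. These are bulk libraries, so a change in the share of cells and a change in RNA per cell cannot be told apart, and the part of cell state in the results below was not tested.

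Knockdown of Smarcc1 was accompanied by higher levels of 3 autosomal demethylases, Kdm3a, Kdm5b and Kdm4c, and of 2 X-linked deacetylases, Hdac6 and Hdac8. These 5 of 42 rows (11.9%) passed an adjusted p of 0.05 over all tested rows in limma, all of them higher. Over all tested rows 11.6% passed, 6.88% higher and 4.77% lower, so the share of members that passed was close to the background, and 0 members were lower (3 were lower at an unadjusted p under 0.05). The median difference of the members was -0.01 log2, the same as the -0.01 log2 over all tested rows. None of the 5 genes shared annotated exon bases with another gene.

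**Figure D1:**
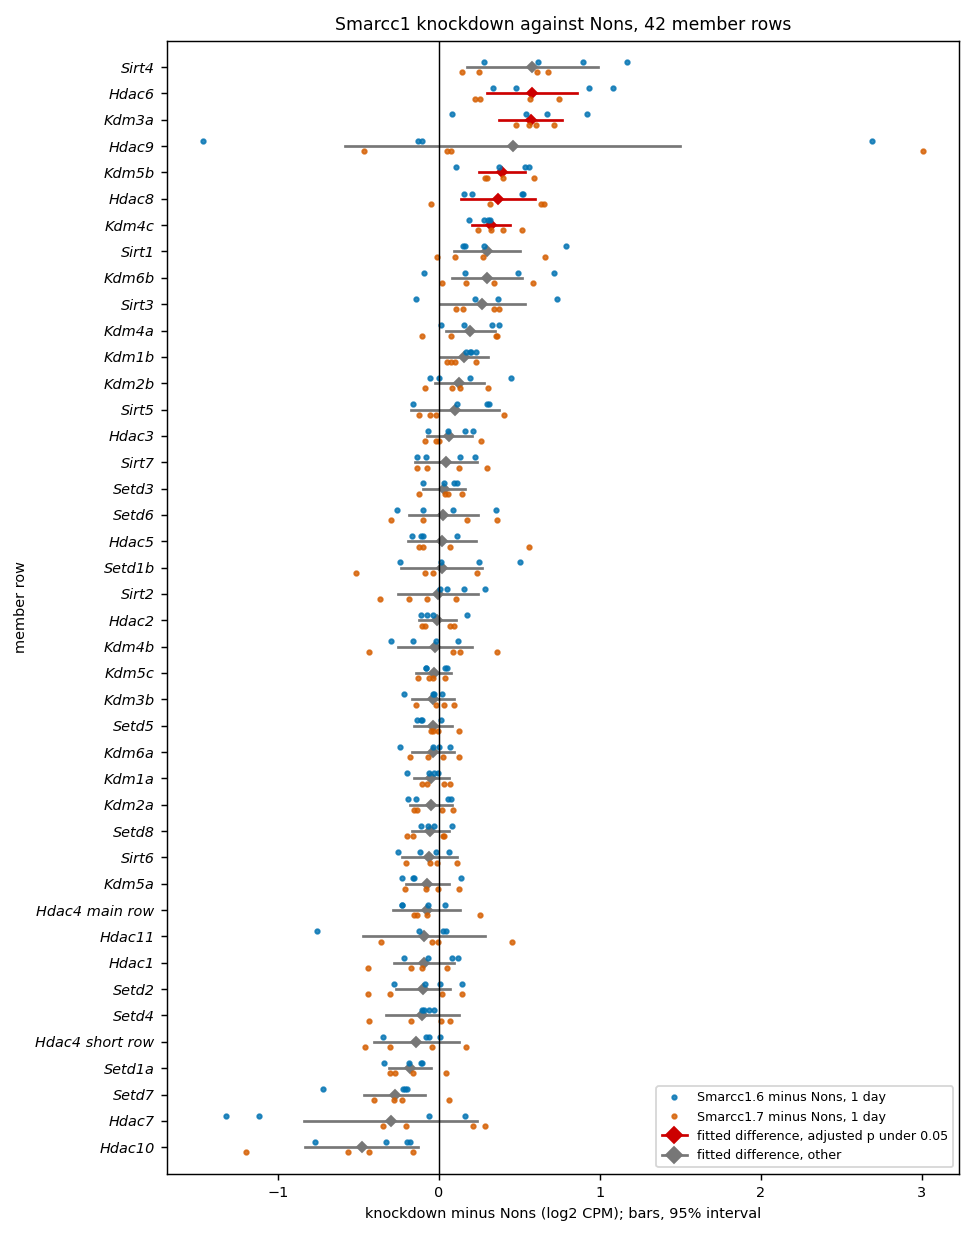
Difference between Smarcc1 knockdown and Nons in log2 CPM for the 42 member rows, ordered by the fitted value. Diamonds and bars are the limma estimate and its 95% interval (red, adjusted p under 0.05), and small points are the same-day differences of Smarcc1.6 (blue) and Smarcc1.7 (orange). The 5 red members lie between 0.32 and 0.58 log2, and Hdac9 shows the widest spread, from -1.47 to 3.01.

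Kdm3a (chromosome 6, 71588974 to 71632905) removes methyl groups from mono- and dimethylated H3K9. Its level was 7.38, 6.71, 6.69 and 6.48 log2 CPM in Nons on days 4, 5, 6 and 7, 8.30, 7.38, 7.23 and 6.56 with Smarcc1.6, and 8.09, 7.31, 7.25 and 6.96 with Smarcc1.7. Knockdown was higher on the same day in 8 of 8 comparisons, by 0.08 to 0.92 log2, although the groups overlapped across days because all 3 fell. Same-day comparisons use each Nons library for both hairpins, so the 8 are not independent. The fitted difference was 0.57 ± 0.09 log2 (SE; 1.48-fold, limma adjusted p = 0.0044). Its paralog Kdm3b, which acts on the same mark, was -0.04 ± 0.06 log2 (limma adjusted p = 0.73), with a 95% interval from -0.17 to 0.09 log2.

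Kdm4c (chromosome 4, 74242497 to 74405860) acts on trimethylated H3K9 and H3K36. Nons libraries were at 7.59, 7.52, 7.45 and 6.57 log2 CPM, Smarcc1.6 libraries at 7.78, 7.80, 7.76 and 6.87, and Smarcc1.7 libraries at 7.83, 7.85, 7.84 and 7.08. In all 3 groups it held nearly level from day 4 to day 6 and was lowest on day 7, and knockdown was above Nons in 8 of 8 same-day comparisons. The difference of 0.32 ± 0.05 log2 (1.25-fold) had an adjusted p of 0.0056 in limma. Kdm4a, with 0.19 ± 0.07 log2, and Kdm4b, with -0.03 ± 0.10 log2, did not pass (limma adjusted p = 0.090 and 0.90).

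Kdm5b (chromosome 1, 134560171 to 134632877) removes methyl groups from H3K4. It was the member with most reads, at 9.18, 8.75, 8.53 and 8.0 log2 CPM in Nons, 9.56, 9.31, 9.06 and 8.10 with Smarcc1.6, and 9.48, 9.34, 8.92 and 8.28 with Smarcc1.7. Again 8 of 8 same-day comparisons were higher in knockdown, by 0.10 to 0.59 log2, and the smallest gaps were on day 7. The fitted difference was 0.39 ± 0.07 log2 (1.31-fold, limma adjusted p = 0.0052), whereas Kdm5a was -0.07 ± 0.06 log2 (limma adjusted p = 0.48).

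Promoter windows of these 3 demethylases are shown because they were higher with each hairpin. Each window covers 250 bases before and 50 bases after a RefSeq transcript start (GRCm38.p6, strand of the gene), and capitals mark the motifs searched on both strands, the GC box GGGCGG, the E-box CACGTG and the TATA box TATAAA. These motifs do not overlap in the windows shown. Kdm3a has 3 windows in the table, of which the nearest to the start of the deposited row is shown, and Kdm4c has 2, 1 at the start of the deposited row and 1 placed 9382 bases downstream.
Kdm3a, chr6:71632868-71633167, minus strand: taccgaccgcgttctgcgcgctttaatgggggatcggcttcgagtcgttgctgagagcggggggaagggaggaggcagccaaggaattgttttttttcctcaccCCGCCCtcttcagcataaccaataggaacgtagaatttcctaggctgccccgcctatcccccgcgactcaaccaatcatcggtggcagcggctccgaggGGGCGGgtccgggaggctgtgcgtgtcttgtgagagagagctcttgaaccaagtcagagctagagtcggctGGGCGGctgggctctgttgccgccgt
Kdm4c, chr4:74242247-74242546, plus strand: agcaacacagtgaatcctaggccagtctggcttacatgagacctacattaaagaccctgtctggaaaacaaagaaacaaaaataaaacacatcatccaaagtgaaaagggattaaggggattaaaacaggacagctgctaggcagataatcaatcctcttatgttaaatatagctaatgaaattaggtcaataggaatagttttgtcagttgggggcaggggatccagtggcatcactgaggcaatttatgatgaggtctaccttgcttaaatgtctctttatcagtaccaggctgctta
Kdm4c, chr4:74251629-74251928, plus strand: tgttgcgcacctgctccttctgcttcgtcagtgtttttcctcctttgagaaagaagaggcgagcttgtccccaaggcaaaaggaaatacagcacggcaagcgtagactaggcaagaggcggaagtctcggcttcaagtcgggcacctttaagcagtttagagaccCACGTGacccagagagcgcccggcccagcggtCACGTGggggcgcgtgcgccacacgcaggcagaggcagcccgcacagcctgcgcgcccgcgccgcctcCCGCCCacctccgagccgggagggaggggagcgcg
Kdm5b, chr1:134559928-134560227, plus strand: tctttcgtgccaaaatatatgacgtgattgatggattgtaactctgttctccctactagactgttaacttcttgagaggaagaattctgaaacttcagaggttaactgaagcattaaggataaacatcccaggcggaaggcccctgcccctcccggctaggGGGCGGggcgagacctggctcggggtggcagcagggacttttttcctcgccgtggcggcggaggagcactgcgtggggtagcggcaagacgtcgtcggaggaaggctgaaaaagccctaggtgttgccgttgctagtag
The Kdm3a window held 3 GC boxes and 24 CG dinucleotides, that of Kdm5b 1 GC box and 17 CG dinucleotides. Of the Kdm3a windows not shown, 1 held 4 GC boxes and 40 CG dinucleotides, and the other, 23766 bases away, held 0 CG dinucleotides and 0 GC boxes. Of the Kdm4c windows, the upstream one held 0 CG dinucleotides and none of the motifs, and the downstream one 28 CG dinucleotides, 1 GC box and 2 E-boxes. Among all 32544 distinct windows in the table, 35.9% held a GC box, 7.17% an E-box and 13.6% a TATA box, and the median number of CG dinucleotides was 7. Of the 32 members with a window, 18 had a GC box, 3 an E-box and 1 a TATA box in the window nearest the row's start. That window can lie far away, for example 42669 bases in Sirt1. These counts take 1 window per member, whereas the shares above take every distinct window and are not limited to tested rows. A difference between these counts and shares was not tested.

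The X-linked members split into 2 that passed and 2 that did not. Hdac6 (X, 7930120 to 7947889), a class IIb enzyme known for deacetylating tubulin, was at 7.02, 6.10, 5.71 and 6.42 log2 CPM in Nons, 7.5, 7.18, 6.64 and 6.75 with Smarcc1.6, and 7.25, 6.84, 5.97 and 6.98 with Smarcc1.7. Every same-day comparison was higher in knockdown, from 0.23 to 1.08 log2, and the lowest library was Nons on day 6. The difference was 0.58 ± 0.13 log2 (1.49-fold, limma adjusted p = 0.016). This call was lost under 6 of 25 alternatives, among them those without the Nons library of day 5 or of day 6.

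Hdac8 (X, 102284639 to 102505359), a class I enzyme known for deacetylating cohesin, was far lower, at 3.55, 3.22, 3.44 and 3.34 log2 CPM in Nons. It was at 3.70, 3.42, 3.96 and 3.85 with Smarcc1.6 and at 3.5, 3.53, 4.10 and 3.97 with Smarcc1.7. Of 8 same-day comparisons 7 were higher in knockdown, and the larger gaps, 0.52 to 0.65 log2, were all on days 6 and 7. The difference of 0.37 ± 0.10 log2 (1.29-fold, limma adjusted p = 0.043) was the weakest of the 5 calls and was lost under 18 of 25 alternatives.

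Kdm5c and Kdm6a, an H3K4 and an H3K27 demethylase, lay close to Nons in both hairpins. Kdm5c was at 8.65, 8.31, 8.22 and 7.70 log2 CPM in Nons, 8.58, 8.35, 8.27 and 7.62 with Smarcc1.6, and 8.59, 8.27, 8.08 and 7.74 with Smarcc1.7. Kdm6a was at 7.53, 7.40, 7.30 and 6.66, at 7.49, 7.47, 7.30 and 6.41, and at 7.56, 7.53, 7.12 and 6.59 in the same order. On each day the libraries lay within 0.13 log2 of Nons for Kdm5c and within 0.24 log2 for Kdm6a. The fitted differences were -0.03 log2 (95% interval -0.14 to 0.07, limma adjusted p = 0.70) and -0.04 log2 (-0.17 to 0.09, limma adjusted p = 0.72). Across the X chromosome 68 of 507 tested rows (13.4%) were higher in knockdown and 35 (6.90%) lower, against 6.63% and 4.69% of 12886 autosomal rows. The values combine both alleles, and allele-specific levels were not analysed here.

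**Figure D2:**
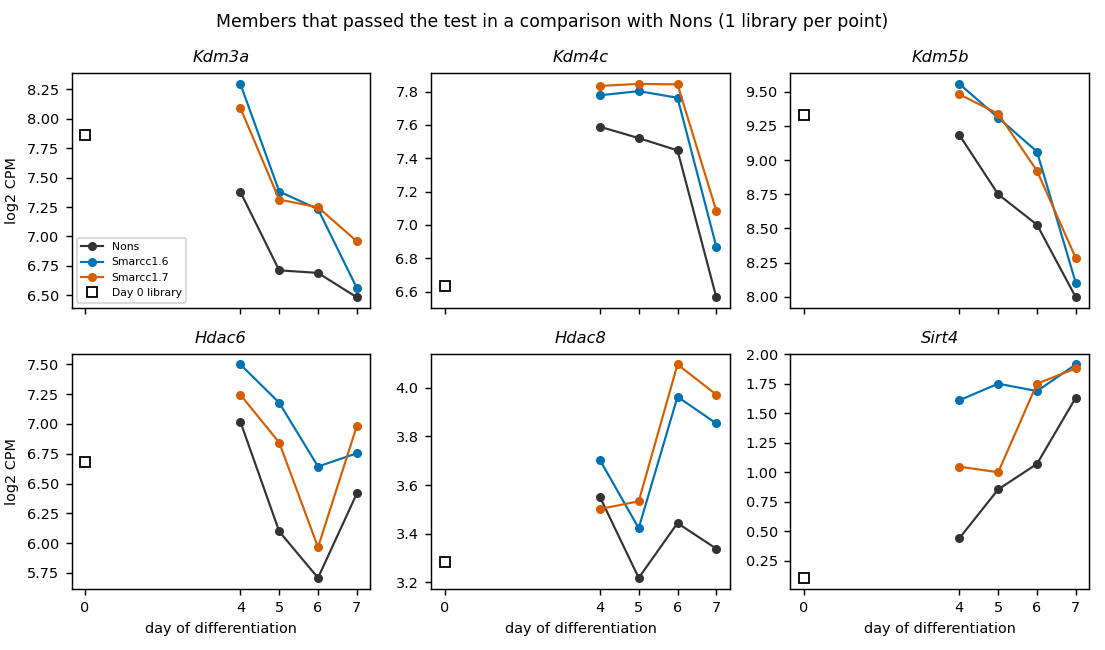
Level in log2 CPM (vertical axis) against day of differentiation for the 6 members that passed in a comparison with Nons. Each point is 1 library (black, Nons; blue, Smarcc1.6; orange, Smarcc1.7; open square, Day0). Kdm3a, Kdm5b and Kdm4c fell with day while staying higher in knockdown than in Nons on each day, and Hdac6 was lowest on day 6.

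Considered alone in the 3-group fit, Smarcc1.6 had 5 members higher than Nons (Kdm3a, Kdm4c, Kdm5b, Hdac6 and Sirt4), where 5.59% of all rows were higher. Smarcc1.7 had 3 (Kdm3a, Kdm4c and Kdm5b), where 1.69% of all rows were higher. With Smarcc1.7, 0 members passed without day 5, day 6 or the Nons library of day 5 or 6. The count was also 0 without the Smarcc1.7 library of day 5, 6 or 7. In these fits 0.0075% to 0.51% of all rows passed in either direction, against 2.45% in the full fit. Without the Smarcc1.7 library of day 4 or without a trend 1 member passed (0.51% and 1.08% of all rows). With Smarcc1.6, 0 passed without day 5, day 6 or its own library of day 5 (1.33%, 1.51% and 2.63% of all rows). Without the Nons library of day 5 or 6, 1 and 3 members passed (3.98% and 5.04% of all rows). Without the Smarcc1.6 library of day 6, 2 passed (3.66% of all rows). In the full fit 9.30% of all rows passed. The differences for Kdm3a were 0.55 and 0.59 log2 with Smarcc1.6 and Smarcc1.7, for Kdm4c 0.27 and 0.37, and for Kdm5b 0.39 and 0.39 (limma adjusted p from 0.013 to 0.018 and from 0.016 to 0.037). Both comparisons share the Nons libraries. Hdac6 was 0.71 ± 0.13 log2 with Smarcc1.6 (limma adjusted p = 0.011) and 0.45 ± 0.13 log2 with Smarcc1.7 (0.099). When the hairpins were set against each other, 0 members and 0% of all rows passed in limma (2 members, Hdac7 and Sirt2, and 530 rows at an unadjusted p under 0.05), so a difference between hairpins was not detectable for Hdac6 (0.26 log2, 95% interval -0.04 to 0.56).

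Sirt4, a mitochondrial sirtuin expressed at a low level, was at 0.44, 0.86, 1.07 and 1.63 log2 CPM in Nons, 1.61, 1.75, 1.69 and 1.91 with Smarcc1.6, and 1.05, 1.00, 1.75 and 1.88 with Smarcc1.7. The gap to Smarcc1.6 was widest on day 4, at 1.17 log2, and narrowed to 0.28 on day 7 as Nons rose. It passed for Smarcc1.6 (0.74 ± 0.20 log2, limma adjusted p = 0.046), a call that was lost under 16 of 22 alternatives, and with both hairpins pooled it was 0.58 ± 0.19 log2 (limma adjusted p = 0.064).

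The pooled calls depend on how the design is fitted. Without day as a factor 0 members and 4 rows in all passed in limma (1 member at an unadjusted p under 0.05). With only 1 hairpin fitted beside Nons 0 members passed, where 57 rows in all passed for Smarcc1.6 and 0 for Smarcc1.7. At an unadjusted p under 0.05 these limma fits had 10 members for Smarcc1.6 and 8 for Smarcc1.7. With any 1 day or 1 library left out, between 2 and 8 members passed in the pooled comparison, and Kdm3a was among them each time. Leaving out day 5 kept Kdm3a and Kdm4c (2.88% of all rows passed), and leaving out day 6 kept Kdm3a, Kdm5b and Hdac6 (2.14%). Leaving out the Nons library of day 6 gave 3 (4.65% of all rows). Leaving out day 7 (13.2%) or the Nons library of day 7 (11.7%) gave 8, including Setd7 and Setd1a as lower.

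The other 37 members did not pass for knockdown, and 30 of them had a 95% interval within 0.5 log2 of 0 on both sides. Besides Sirt4, those closest to the threshold were Setd7, an H3K4 monomethyltransferase (-0.28 log2, limma adjusted p = 0.058), the NAD+-dependent deacetylase Sirt1 (0.30 log2, limma adjusted p = 0.058) and Kdm6b, an H3K27 demethylase (0.30 log2, limma adjusted p = 0.070). Hdac10, a polyamine deacetylase, was lower than Nons in 8 of 8 same-day comparisons, with -0.48 ± 0.16 log2 (limma adjusted p = 0.074). Setd1a (-0.18 log2, limma adjusted p = 0.074) was below Nons in all but 1 comparison, but 51.9% of its exon bases are shared with the same-strand gene model Gm49388. By family, 1 of 4 class I HDACs, 1 of 3 class IIb and IV HDACs, 1 of 2 KDM3, 1 of 3 KDM4 and 1 of 3 KDM5 members were higher. No member of the class IIa HDACs, sirtuins, KDM1, KDM2 and KDM7, KDM6 or SETD families passed with the hairpins pooled.

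More members passed in the fit over days than in the knockdown comparison, but the fits differ in design. Over days 4 to 7, with group as a covariate, 15 members rose and 12 fell in limma, where 34.9% of all rows rose and 25.6% fell. In members these counts are 35.7% and 28.6%, again near the background. This fit treats the 3 libraries of a day as independent although they share the day. With the Nons libraries alone, 1 per day, 5 members passed, where 12.1% of all rows did. The median change of the members was 0.05 log2 per day, against 0.04 log2 over all tested rows. With each library centred on its autosomal median, 13 members rose and 16 fell, and the share of rises among the calls went from 55.6% to 44.8% (over all rows from 57.7% to 43.0%). Without day 4, 9 members rose and 11 fell, where 49.8% of all rows passed, against 60.5% in the full fit.

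The steepest rises were in deacetylases of class IIa, IIb and IV and in Setd7. Hdac7, a class IIa enzyme known from the vascular endothelium and lymphocytes, went from 0.08, 0.24 and 0.36 log2 CPM on day 4 (Nons, Smarcc1.6, Smarcc1.7) through 0.99, -0.34 and 0.78 and then 2.87, 1.75 and 2.52 to 4.30, 4.24 and 4.51 on day 7. The libraries of day 7 were all above those of the earlier days, and Day0 lay at 0.17. The rise was 1.43 ± 0.16 log2 per day (2.69-fold per day, limma adjusted p = 2.57e-05).

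Hdac11, the single class IV enzyme, known as a fatty acid deacylase, rose from -0.04, -0.01 and -0.40 log2 CPM on day 4 to 1.81, 1.06 and 1.81, then 2.97, 2.84 and 2.92, and 3.64, 3.69 and 4.09 on day 7, 1.32 ± 0.09 log2 per day (limma adjusted p = 1.92e-06). The days did not overlap, and Day0 at 1.01 lay above all 3 libraries of day 4. Gene models on the opposite strand share exon bases with Hdac11, the largest overlap being 15.4%, and without a stated strand setting such reads cannot be told apart.

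Setd7 rose from 4.60, 4.38 and 4.36 log2 CPM on day 4 to 6.34, 5.63 and 5.94, 7.13, 6.90 and 6.85, and 7.33, 7.14 and 7.39 on day 7, from a Day0 level of 3.96 that was below all 12 libraries. Its rise was 0.95 ± 0.09 log2 per day (limma adjusted p = 1.1e-05), with the largest step between days 4 and 5 in Nons and Smarcc1.7 and between days 5 and 6 in Smarcc1.6. Hdac5, a class IIa enzyme, climbed from 4.63, 4.52 and 4.53 on day 4 through 5.17, 5.06 and 5.04 and 5.92, 5.75 and 5.99 to 5.99, 6.10 and 6.55 on day 7 (0.58 ± 0.05 log2 per day, limma adjusted p = 4.78e-06), also from a Day0 level, 4.26, below all of them.

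Hdac10 rose from 1.30, 1.12 and 1.14 log2 CPM on day 4 to 1.91, 1.14 and 0.72, 2.51, 2.17 and 1.94, and 2.63, 2.43 and 2.20 (0.47 ± 0.08 log2 per day, limma adjusted p = 0.00062). In each day the Nons library was the highest of the 3. Kdm4b, an H3K9 and H3K36 demethylase, went from 4.53, 4.23 and 4.09 to 5.07, 5.05 and 5.16, 5.27, 5.38 and 5.40, and 5.32, 5.15 and 5.68 (0.36 ± 0.07 log2 per day, limma adjusted p = 0.0013). Most of that rise lay between days 4 and 5, and without day 4 it was 0.14 log2 per day and did not pass (limma adjusted p = 0.086).

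**Figure D3:**
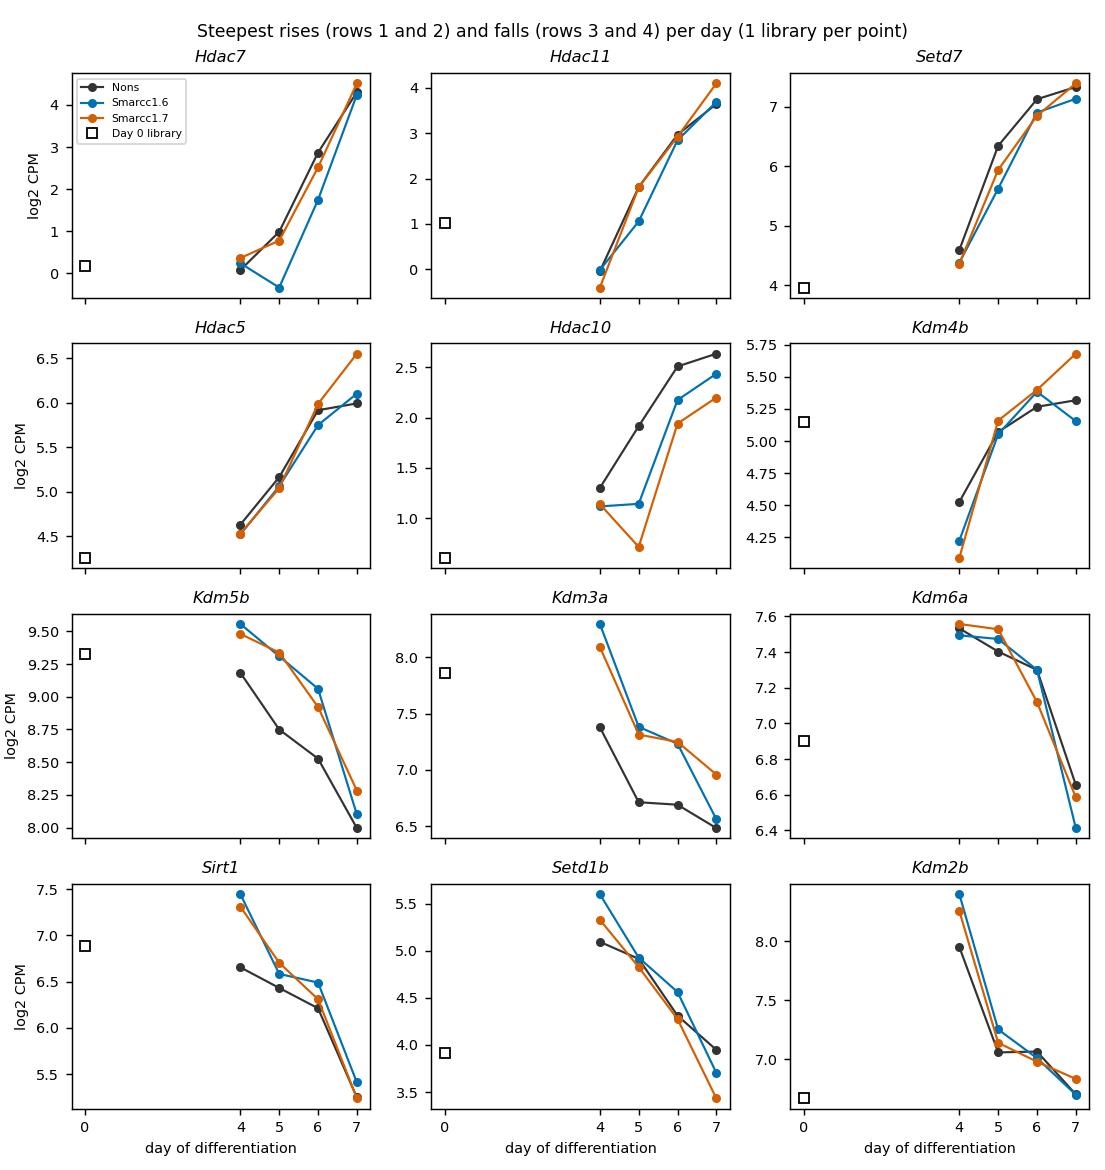
Level in log2 CPM (vertical axis, scaled per panel) against day of differentiation for the 6 members with the steepest rise (upper 2 rows) and the 6 with the steepest fall (lower 2 rows) per day. Each point is 1 library (black, Nons; blue, Smarcc1.6; orange, Smarcc1.7; open square, Day0). Hdac7 and Hdac11 climb by over 1 log2 per day, and Kdm5b and Kdm3a fall from day 4 to day 7 in all 3 groups.

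The steepest falls were in Sirt1, Setd1b and Kdm2b, followed by the demethylases Kdm5b, Kdm3a and Kdm6a. Sirt1 went from 6.65, 7.44 and 7.31 log2 CPM on day 4 to 6.43, 6.58 and 6.70, 6.21, 6.49 and 6.31, and 5.25, 5.41 and 5.24 on day 7 (-0.58 ± 0.06 log2 per day, limma adjusted p = 2.68e-05). All libraries of day 7 were below those of the other days and below Day0, at 6.89.

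Setd1b, the catalytic subunit of an H3K4 methyltransferase complex, dropped from 5.09, 5.60 and 5.33 to 4.91, 4.93 and 4.83, 4.31, 4.56 and 4.28, and 3.95, 3.70 and 3.43 log2 CPM (-0.54 ± 0.05 log2 per day, limma adjusted p = 6.87e-06). Day0, at 3.91, was as low as day 7. Kdm2b, which brings a variant Polycomb complex to CpG islands, went from 7.95, 8.40 and 8.25 to 7.06, 7.25 and 7.14, 7.07, 7.01 and 6.98, and 6.70, 6.70 and 6.83 (-0.45 ± 0.07 log2 per day, limma adjusted p = 0.00029), with most of the drop between days 4 and 5. Its Day0 level, 6.67, was below all 12 libraries, so both Setd1b and Kdm2b were highest on day 4.

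Among the genes already given by library, Kdm5b fell by 0.41 ± 0.05 log2 per day (limma adjusted p = 3.36e-05), Kdm3a by 0.38 ± 0.06 (0.00024) and Kdm6a by 0.32 ± 0.05 (0.00042). Kdm5c fell by 0.29 ± 0.03 log2 per day (limma adjusted p = 4.62e-05) and Kdm4c by 0.27 ± 0.07 (0.0049). The remaining fallers, Setd2, Setd1a, Kdm2a and Sirt6, changed by -0.16 to -0.22 log2 per day. The 5 members that passed with the Nons libraries alone were Hdac7, Hdac11, Setd7 and Hdac5 as rising and Kdm5b as falling.

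By family the time course was mixed. Of the sirtuins, Sirt2, Sirt3, Sirt4 and Sirt5 rose, by 0.17 to 0.30 log2 per day, and Sirt1 and Sirt6 fell. Of the SETD genes, Setd6, Setd7 and Setd8 (Kmt5a, the H4K20 monomethyltransferase) rose while Setd1a, Setd1b and Setd2 fell. Both KDM1 members, Kdm1a and Kdm1b, rose, and both KDM2 members fell. The interaction of knockdown and day passed for 0 members and 0% of all rows in limma (2 members, Setd2 and Setd1b, and 745 rows at an unadjusted p under 0.05). A change per day that differs between knockdown and Nons was therefore not detectable with this fit. It took day as a number without a day factor, so shifts shared by the libraries of a day stayed in its residual spread.

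**Figure D4:**
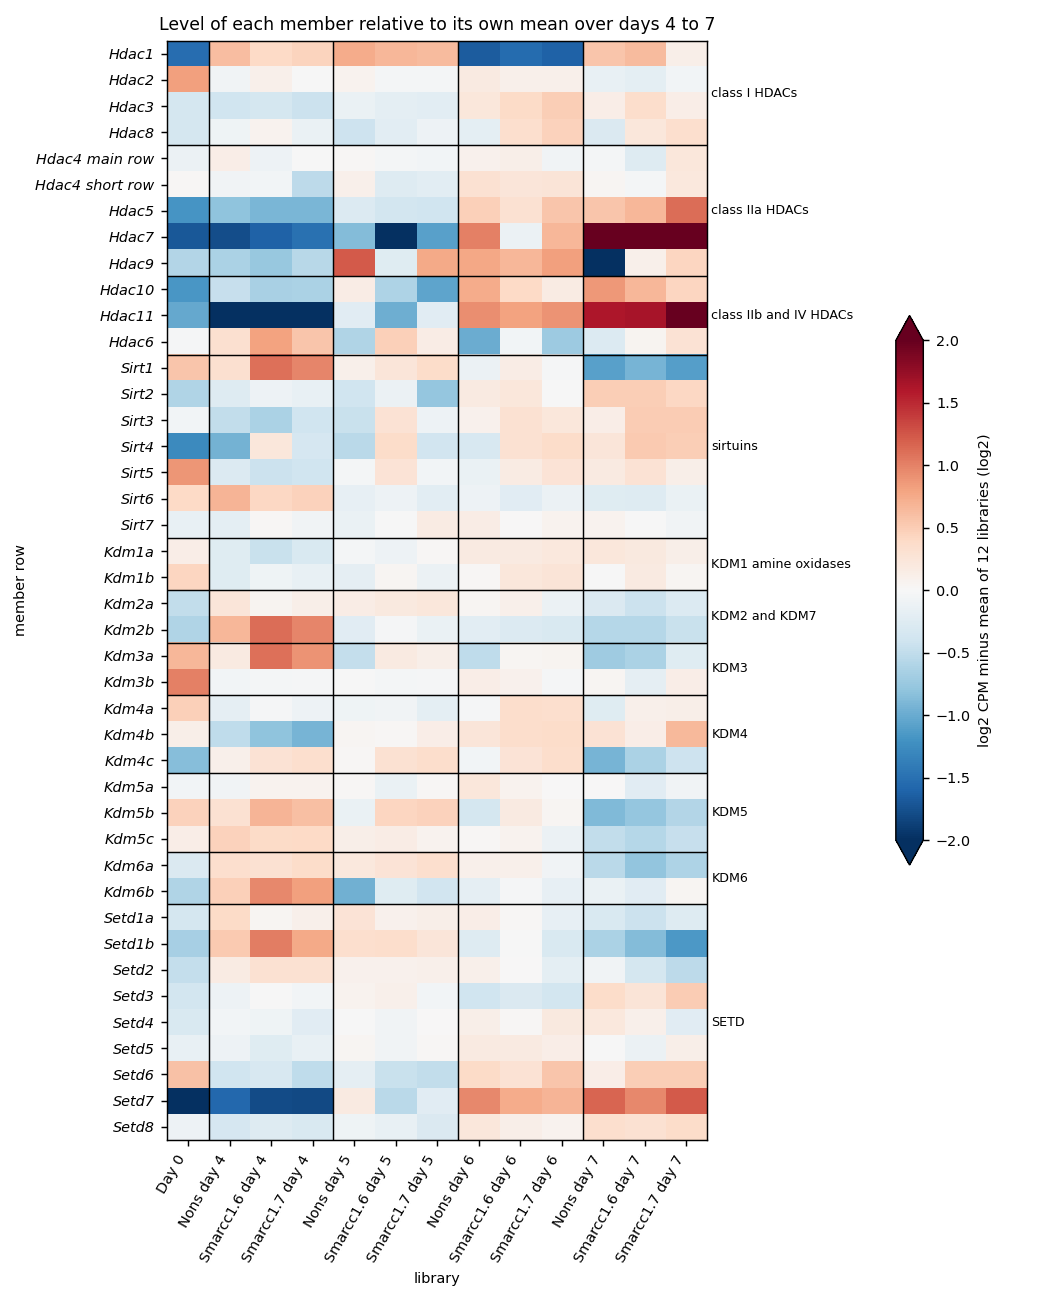
Level of each of the 42 member rows (vertical axis, by family) in each of the 13 libraries (horizontal axis), as log2 CPM minus the row's mean over the 12 libraries of days 4 to 7. Red is above and blue below that mean, with colours saturating at 2 log2. Hdac7, Hdac11 and Setd7 go from blue on day 4 to red on day 7, Sirt1 and Setd1b the other way, and Hdac1 is blue only in Day0 and day 6.

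Hdac1, a class I enzyme and the deacetylase with the most reads, was low in the 4 libraries that place fewer reads in genes. It stood at 7.82, 7.60 and 7.65 log2 CPM on day 4 (Nons, Smarcc1.6, Smarcc1.7), 7.95, 7.88 and 7.84 on day 5, 5.55, 5.67 and 5.60 on day 6, and 7.76, 7.84 and 7.32 on day 7, with 5.68 in Day0. The processed pseudogene Gm10093 (chromosome 17, 78491565 to 78493541) ran the opposite way, at 8.15 to 8.21 on day 6 and 8.44 in Day0 against 5.83 to 6.49 elsewhere. Its annotated transcript of 1444 bases aligned over its whole length to Hdac1 with 99.4% identity.

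Reads at Hdac1 made up 12.9% to 14.7% of the sum of both rows in Day0 and day 6, and 72.6% to 73.9% in the other 9 libraries. The sum itself ranged from 7.76 to 8.43 log2 CPM over days 4 to 7 and was 8.64 in Day0. As deposited, Hdac1 changed by -0.24 ± 0.25 log2 per day (limma adjusted p = 0.42), and with both rows summed by -0.01 log2 per day (limma adjusted p = 0.86), a fit added after the values were seen. Without day 7 the deposited row would have passed as falling, at -1.04 log2 per day (limma adjusted p = 0.011). Its knockdown difference was -0.10 log2 as deposited and -0.12 log2 summed (limma adjusted p = 0.51 and 0.37). Of all tested rows 4.17% lay over 1 log2 above or below the mean of days 5 and 7 on day 6 in every group, and Hdac1 was the 1 member that did.

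**Figure D5:**
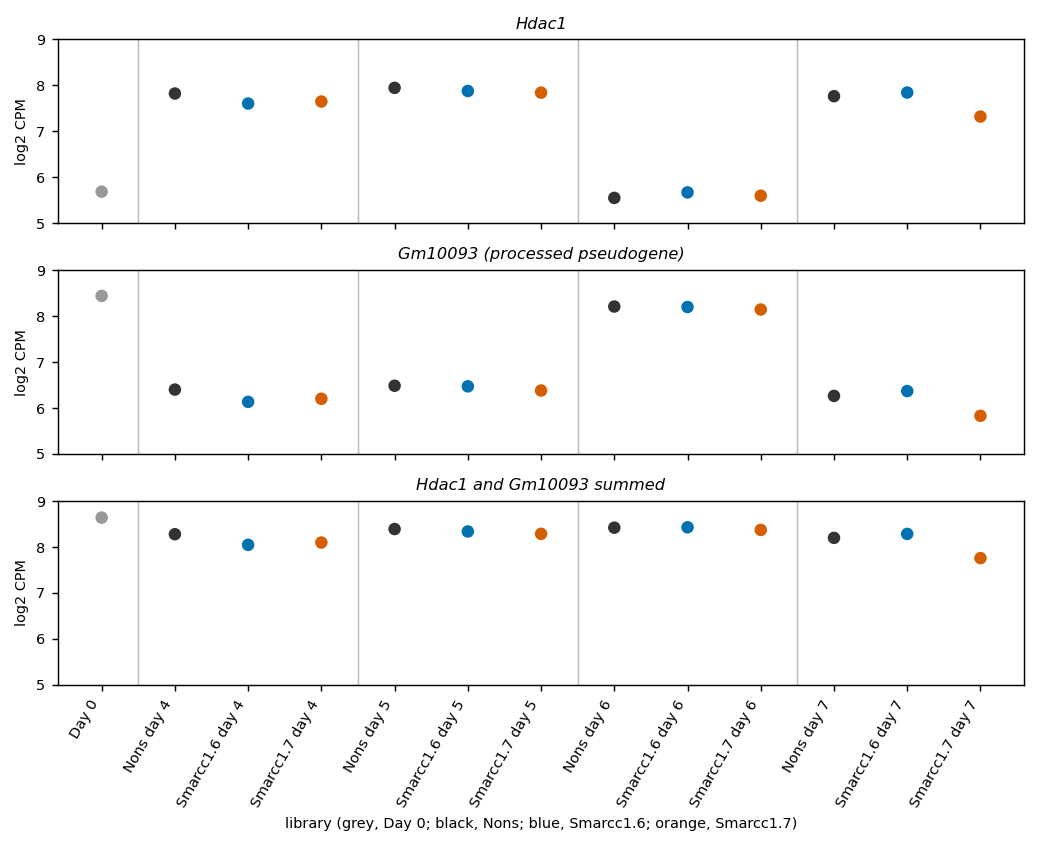
Level in log2 CPM (vertical axis) of Hdac1, of the processed pseudogene Gm10093 and of both summed, in the 13 libraries (horizontal axis; grey, Day0; black, Nons; blue, Smarcc1.6; orange, Smarcc1.7). Hdac1 drops to 5.55 to 5.68 in Day0 and day 6 where Gm10093 climbs to 8.15 to 8.44, and the sum stays between 7.76 and 8.64.

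Levels were compared between genes per kilobase of exon (RPKM, from the deposited CPM and GENCODE M21 exons). Kdm1a, the LSD1 amine oxidase of CoREST and NuRD complexes, averaged 49.1 RPKM over days 4 to 7 and Hdac1 50.4 RPKM, the latter subject to the split with Gm10093. Next on the mean log2 scale came Kdm5c (42.4 RPKM), Kdm5b (35.3), Hdac2 (32.1) and Kdm4c (32.1), whose ranges over the libraries overlapped, so their order is not firm. At the low end were Hdac7 (1.06 RPKM, from 0.117 to 3.37) and Hdac9 (0.168 RPKM).

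Kdm1a changed little between groups, at 7.74, 7.94, 8.16 and 8.20 log2 CPM in Nons, 7.54, 7.87, 8.15 and 8.17 with Smarcc1.6, and 7.67, 8.0, 8.18 and 8.09 with Smarcc1.7. It rose by 0.17 ± 0.03 log2 per day (limma adjusted p = 0.00099). Setd8, the highest SETD member at 22.1 RPKM, was at 6.51, 6.77, 7.08 and 7.18 log2 CPM in Nons, 6.59, 6.70, 6.97 and 7.15 with Smarcc1.6, and 6.54, 6.57, 6.92 and 7.21 with Smarcc1.7, a rise of 0.22 ± 0.03 log2 per day (limma adjusted p = 5.08e-05).

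Within families the balance of paralogs shifted. Of the summed RPKM of the KDM5 family, Kdm5b made up 35.2% in Nons (mean of the 4 days) and 42.3% and 42.5% with the hairpins, and Kdm5c 53.2%, 48.0% and 47.3%. Kdm3a made up 64.7% of the KDM3 sum in Nons and 73.2% with each hairpin, Kdm3b the rest. Kdm4c fell from a mean of 69.2% of the KDM4 sum on day 4 to 47.6% on day 7, against 40.1% in Day0, while Kdm4b went from 7.64% to 20.8%. Among the class IIa HDACs, Hdac7 went from 2.51% on day 4 to 18.8% on day 7. That sum counts both rows of Hdac4, each per its own exon length (34.6% and 22.9% on day 4). Setd7 went from 2.14% to 12.6% of the SETD sum. Shares of a sum are tied to each other, so they restate the levels above in another form.

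Day0 is a single library and entered no test. It lay above all 12 later libraries for 6 members (Hdac2, Kdm1b, Kdm3b, Kdm4a, Setd6 and Sirt5) and below all of them for 7 (Setd7, Sirt4, Kdm2a, Kdm2b, Hdac5, Hdac10 and Setd4). Over all tested rows 18.6% lay above and 24.2% below. The largest gap to the Nons library of day 4 among the 6 was in Sirt5, a desuccinylase of mitochondria, at 3.12 against 1.97 log2 CPM. Day0 has the read assignment of the day 6 libraries, so its values were set beside the others without a test.

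Hdac4, a class IIa enzyme, occupied a row at 91932757 to 92148393 and a shorter one at 91928785 to 91931176 of chromosome 1, so its reads are split and its level is uncertain. Neither row passed, with changes per day of -0.0042 and 0.12 log2 and knockdown differences of -0.08 and -0.14 log2. Annotated exons of 15 members overlap exons of another gene, over 10% of the exon bases in 4 (Hdac4, Hdac11, Setd1a and Kdm3b). Hdac9, near the level threshold, ranged from -2.57 (Nons, day 7) to 1.24 log2 CPM (Nons, day 5), too wide for any comparison to be read (knockdown difference 0.46 ± 0.48 log2).

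Other genes of the same pathways were counted from fixed lists. Of 42 tested subunits of HDAC corepressor complexes, 5 were higher in knockdown (Zmym3 0.95, Phf21a 0.66, Sap30 0.33, Rcor2 0.33 and Mta3 0.21 log2) and Mbd2 was lower (-0.39 log2), with limma adjusted p from 0.0057 to 0.041. Over all tested rows 6.88% were higher and 4.77% lower, and the counts of this and the following lists are to be read against these shares. Phf21a and Rcor2 are CoREST components that work with Kdm1a, and Mta3 and Mbd2 belong to NuRD. The median of the list was -0.03 log2.

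Of 18 COMPASS subunits, which carry H3K4 methyltransferases, Mll3 was higher (0.34 log2) and Mll2 (-0.30 log2) and Men1 (-0.33 log2) were lower. Of 10 histone acetyltransferases, Myst4 (0.42 log2) and Kat2b (0.52 log2) were higher and Kat5 (-0.25 log2) was lower. Smyd2 was the 1 of 20 other lysine methyltransferases to pass (-0.38 log2), and Jarid2, a Polycomb partner with an inactive JmjC domain, the 1 of 12 JmjC genes outside the name pattern (0.33 log2). Medians of these 4 lists lay between -0.05 and -0.02 log2. Per day, 9 of the 18 COMPASS subunits fell and 3 rose, 7 of the 10 acetyltransferases fell and 2 rose, and 10 of the 20 other methyltransferases fell and 2 rose. Of the 42 corepressor subunits 13 fell and 12 rose, and of the 12 JmjC genes 4 fell and 2 rose, where 25.6% of all rows fell and 34.9% rose. These lists were not tested as sets.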

How the data were processed

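RNA was measured in 13 bulk libraries. The authors prepared TruSeq libraries from total RNA, read both ends on a NextSeq500, trimmed adapters and used tophat or hisat2 with an mm10 genome masked at strain differences (the submitters' processing notes name TopHat2 2.0.12). Seqmonk gave the read count of each gene, which the authors deposited as log2 CPM, scaled to the mapped reads of each library, with 0 reads written as 0.9 reads. Strand setting and annotation release are not given in the sources used here. Of the values from 1 to 20 reads, 100% lay within 0.01 reads of a whole number, which gave the depth. A count of 3 reads corresponds to -4.40 to -2.22 log2 CPM, and such floors cover counting error only.

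Linear models were fitted with limma 3.58.1 in R 4.3.3 (eBayes with a trend) to the 13406 rows with a mean of at least 0 log2 CPM over the 12 libraries of days 4 to 7, and p-values were adjusted by Benjamini-Hochberg over all of them, with a threshold of 0.05. Group comparisons had day as a factor, which also blocks by the day that libraries share. The change per day had group as a covariate. The interaction was fitted with knockdown and day as a number, without a day factor or separate hairpins. No pseudocount was added, so fold changes near 0 reads rest on the value of 0.9 reads. The procedure was run on simulated reads in which 200 of 13406 rows changed by 0.5 or 1 log2. It recovered 91.5% to 100% of them, and 1.48% to 6.98% of its calls were false. The simulated libraries were independent, without shifts shared by a day, so the simulation does not cover such shifts. Smarcc1 was tested by exact permutation. Exons came from GENCODE M21 and promoters from RefSeq (GRCm38.p6), and all 42 members matched GENCODE.

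Given with the value in every library were members with an adjusted p under 0.05 in a group comparison, X-linked members, the 6 largest rises and falls per day, and the highest per length in each family; members near a threshold and Kdm3b, Kdm5a, Kdm4a and Hdac4 were added after their values were seen. Members and lists were chosen with earlier results of these data known. Alternatives were other filters and scalings, no trend, voom on recovered reads, each day or library left out, single hairpins, no day factor and, added after seeing the data, Hdac1 summed with Gm10093.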

Additional observations from a re-analysis of the deposited data

Results flagged for a closer look

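Kdm4c was lowest on day 7 in every group, and in each the gap to the next library was most of the group's range by Dixon's criterion for 4 libraries. The values were 6.57 log2 CPM in Nons, 6.87 with Smarcc1.6 and 7.08 with Smarcc1.7.

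Hdac1 was lowest on day 6 by the same criterion at 5.55 log2 CPM in Nons and 5.67 with Smarcc1.6, the libraries in which Gm10093 was highest. For replicates of 1 condition the criterion marks about 1 group in 20 by chance. These libraries are of different days, so a step between days is marked as well.

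Kdm4d, below the level threshold and in no comparison, had a median of -2.0 log2 CPM over the 8 knockdown libraries, above the highest Nons library at -3.09. Its reads numbered 7, 2, 0 and 0 in Nons on days 4, 5, 6 and 7, 8, 11, 16 and 17 with Smarcc1.6, and 2, 3, 2 and 15 with Smarcc1.7. These are few reads and were not tested.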

How the results depend on the processing

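The design with day as a factor and both hairpins pooled decided the knockdown calls. With no replicate block, so without day, 0 members passed in limma in the pooled comparison, 0 with Smarcc1.6 and 0 with Smarcc1.7. Of all tested rows 4, 0 and 0 passed in these fits. With a single hairpin beside Nons 0 members passed for Smarcc1.6 and 0 for Smarcc1.7, where 57 and 0 rows passed in all. At an unadjusted p under 0.05 in limma there were 1, 1 and 0 members without day, and 10 and 8 with a single hairpin. The number of members passing with 1 day or library left out ranged from 2 to 8 in the pooled comparison, from 0 to 7 with Smarcc1.6, from 0 to 4 with Smarcc1.7 and from 20 to 28 for the change per day, and was 0 throughout between hairpins and for the interaction. With 1 left out, 2.14% to 14.9% of all rows passed in the pooled fit and 1.33% to 12.6% with Smarcc1.6. The shares were 0.0075% to 7.85% with Smarcc1.7 and 49.8% to 62.4% for the change per day. Without a trend 1 member passed with Smarcc1.7 (1.08% of all rows), and with Nons libraries alone 5 members changed per day (12.1% of all rows). The difference in Smarcc1 ranged from -1.25 to -0.94 log2 over the days left out, each past the threshold. Filters, scaling and voom kept the pooled knockdown count between 4 and 6; voom on recovered reads called 1433 rows in all. Of 840 values of single members under alternatives, 718 kept direction and side of the threshold, 118 lost their call, 2 gained one and 2 changed sign. The sign changes were both the knockdown difference of Kdm6a, not called, which ranged from -0.084 to 0.00016 log2 with 1 day or library left out. The causes were not tested.

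Depth limits Hdac9, Sirt4 and Hdac10 most, as the members with fewest reads over days 4 to 7, and the day 6 read assignment limits Hdac1.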
